A study of Mus musculus with 21 samples.

Results

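Keratins are the intermediate filament proteins of epithelial cells. The genes described here are all those of the array whose annotated symbol is Krt followed by a number and at most 1 letter, which leaves out the keratin-associated proteins. There were 40 such genes, read by 48 probes, among the 19087 genes of the table. Of them, 22 encode type I and 18 type II keratins, and 21 lie on chromosome 11 and 19 on chromosome 15 of the mouse. Probes of the same gene were averaged, and 13 further keratin genes, Krt24, Krt28, Krt32, Krt39, Krt40, Krt42, Krt72, Krt73, Krt77, Krt78, Krt80, Krt81 and Krt83, had no probe that could be named here.

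The keratins were followed in 20 mammary tumours, each from a different transgenic mouse according to the labels. The transgene was MMTV-ATX in 5 mice, MMTV-LPA1 in 5 others, and MMTV-LPA2 and MMTV-LPA3 in 5 each. MMTV is a viral promoter that is active in mammary epithelium. ATX stands for autotaxin, which cells secrete and which produces the signalling lipid lysophosphatidic acid, and LPA1, LPA2 and LPA3 are receptors of that lipid. The 3 receptor genotypes together are called receptor tumours below. No array of normal mammary gland was analysed here, and the age of the mice is not in the labels used here, so the genotypes are compared with each other and with the array reference. The reference was total RNA of a whole mouse, which includes skin, hair follicles, tongue and gut. Each value is a log2 ratio of tumour over whole mouse, so 0 is the level of the whole-mouse RNA and a value of 1 is a doubling. No source used here names the base of the logarithm, and the spread of the values led to base 2 being used. In RNA from whole tumours, fewer cells of a type and less RNA per cell cannot be told apart.

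Keratins work in pairs. A type I and a type II protein join into a dimer, so a cell makes at least 1 keratin of each type, and which pair it makes marks the kind of epithelium. In the mammary gland the luminal cells that line the ducts make the simple keratins Krt8, Krt18, Krt19 and Krt7. The basal, or myoepithelial, cells around them make Krt5, Krt14 and Krt17. Krt15, a keratin of basal keratinocytes, was listed here with these basal keratins. Keratins of the upper layers of skin and mucosa, of wound edges and of hair are not typical of the gland, and in mammary tumours they can mark squamous or hair-like differentiation.

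The arrays fell into sets that touch every keratin result. The log2 ratios of all features had an SD of 0.825 to 0.903 on the arrays of slides 5 and 6, against 1.195 to 1.432 on those of the other slides. Slides 5 and 6 held 7 tumours, namely LPA1 mice 1, 2 and 5, LPA2 mice 1, 2 and 5 and LPA3 mouse 4, and 0 ATX tumours. The slides were numbered here from the array titles, and the labels do not say how the slides differed. LPA1 mouse 4 was measured on 2 arrays, the first on slide 7 and the repeat on slide 4. These were averaged, and the tumour is counted with the 13 tumours of slides 1 to 4. As a check of the mammary label, the median of 10 luminal markers lay above 0 in 19 of 20 tumours, the exception being LPA3 mouse 4 at -0.19. Its members differed, since Elf5 lay above 0 in 20 tumours and Gata3 and Epcam in 18, but Foxa1 in 11, Prom1 in 9 and Cdh1, the epithelial cadherin, in 3.

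Against the whole mouse, luminal keratins were the high ones and most other keratins were low. Averaged over the 20 tumours, 8 keratins lay above 0 and 32 below, whereas 50.9% of all genes lay above 0. Krt18 had the highest mean log2 ratio, 1.97 ± 0.841 (SD, n = 20). It was followed by Krt8 with 1.59 ± 0.739, Krt19 with 1.31 ± 1.25 and Krt7 with 0.67 ± 0.995. The lowest was Krt20, a keratin of intestinal and bladder surface cells, with -3.86 ± 1.39. Next came Krt25 and Krt71, keratins of the inner root sheath of hair, with -3.57 ± 1.48 and -3.21 ± 0.999. Only Krt8 and Krt18 lay above the reference in all 20 tumours, a count of 2 of 40 where 3.99% of all genes did so. Krt2, Krt10, Krt15, Krt20, Krt25, Krt35 and Krt71 lay below it in every tumour, a count of 7 of 40 where 6.72% of all genes did so. The keratins varied more between tumours than other genes, with a median SD of 1.04 against 0.587 over all genes.

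**Figure D1:**
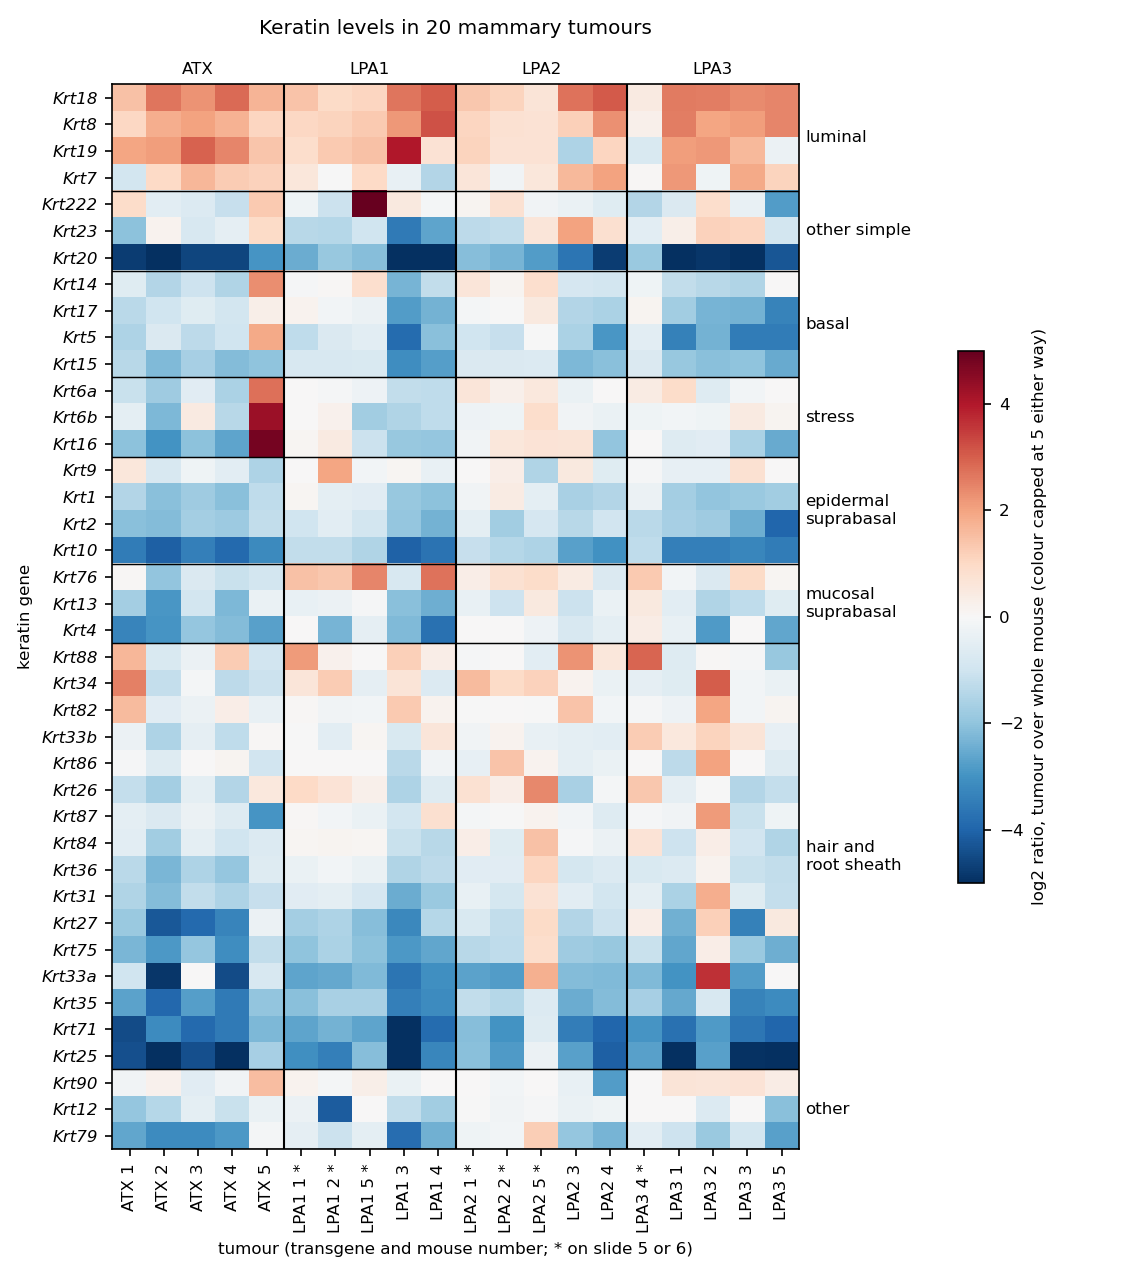
Log2 ratio of tumour over whole mouse (colour) for each of the 40 keratins (rows, grouped by kind of epithelium and ordered by mean) in each of the 20 tumours (columns, by transgene, an asterisk marking slides 5 and 6). Krt8 and Krt18 are red in every column, Krt20 blue in every column, and ATX 5 stands out in the stress keratins and LPA3 2 and LPA2 5 in the hair keratins.

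The luminal keratins overlapped between the 4 genotypes, with wide spread inside each. Krt18 had log2 ratios of 1.46, 2.69, 2.24, 2.83 and 1.71 in ATX tumours. It had 1.43, 0.97, 2.67, 3.02 and 1.08 in LPA1 tumours, 1.36, 1.11, 2.73, 3.08 and 0.66 in LPA2 tumours and 2.59, 2.57, 2.38, 0.44 and 2.46 in LPA3 tumours. All 4 groups overlapped, and the 7 lowest values were those of the 7 tumours on slides 5 and 6. Its type II partner Krt8 averaged 1.54 ± 0.451 in the ATX group, 1.75 ± 0.908 with LPA1, 1.21 ± 0.628 with LPA2 and 1.87 ± 0.924 with LPA3 (SD, n = 5 each). The genes of these partners lie side by side on chromosome 15, the only place where a type I keratin sits in the type II cluster.

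Krt19, a small type I keratin of luminal and progenitor cells, was the luminal member with the largest difference between ATX and receptor tumours. Its log2 ratios were 1.98, 2.08, 2.94, 2.45 and 1.38 in ATX tumours. They were 0.86, 1.29, 4.00, 0.72 and 1.48 in LPA1 tumours, 1.12, 0.74, -1.53, 1.09 and 0.72 in LPA2 tumours and 2.08, 2.18, 1.64, -0.77 and -0.28 in LPA3 tumours. The ATX values stood closest together and the highest single value was in LPA1 mouse 3. ATX tumours averaged 1.14 above the receptor tumours (SE 0.553), which did not pass the test (adjusted p = 0.4, limma). Krt7, the type II keratin of ducts, averaged 0.83 ± 1.01 in the ATX group, -0.05 ± 0.939 with LPA1, 0.93 ± 0.882 with LPA2 and 0.99 ± 1.06 with LPA3, and it lay below 0 in 6 of 20 tumours.

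The basal keratins lay below the whole-mouse level in most tumours. Krt5, the type II keratin of basal cells, had log2 ratios of -1.53, -0.73, -1.30, -1.01 and 1.91 in ATX tumours. It had -1.26, -0.71, -3.83, -2.10 and -0.51 in LPA1 tumours, -0.99, -1.14, -1.58, -2.90 and -0.03 in LPA2 tumours and -3.39, -2.37, -3.51, -0.51 and -3.48 in LPA3 tumours. ATX mouse 5 was the only tumour above 0, and the 4 lowest values were those of LPA1 mouse 3 and LPA3 mice 1, 3 and 5.

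Krt17, a type I keratin of basal cells and skin appendages that is induced by injury, had log2 ratios of -1.36, -0.98, -0.62, -0.91 and 0.30 in ATX tumours. It had 0.18, -0.13, -2.81, -2.37 and -0.30 in LPA1 tumours, -0.09, -0.02, -1.45, -1.58 and 0.50 in LPA2 tumours and -1.72, -2.31, -2.38, 0.13 and -3.33 in LPA3 tumours. The 7 tumours of slides 5 and 6 lay between -0.30 and 0.50, and the receptor tumours of slides 1 to 4 all lay at or below -1.45. Krt14, the type I partner of Krt5, averaged -0.46 ± 1.60 in the ATX group, -0.54 ± 1.24 with LPA1, -0.03 ± 0.814 with LPA2 and -0.87 ± 0.708 with LPA3. ATX mouse 5 had the highest Krt14 value, 2.33, and the other 4 ATX tumours lay between -1.49 and -0.62. Krt15, a type I keratin of basal keratinocytes and the hair bulge, averaged -1.89 ± 0.345 in the ATX group, -1.64 ± 1.18 with LPA1, -1.28 ± 0.795 with LPA2 and -1.86 ± 0.673 with LPA3. Its 7 values on slides 5 and 6 lay within -0.80 to -0.67, above all 13 others.

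**Figure D2:**
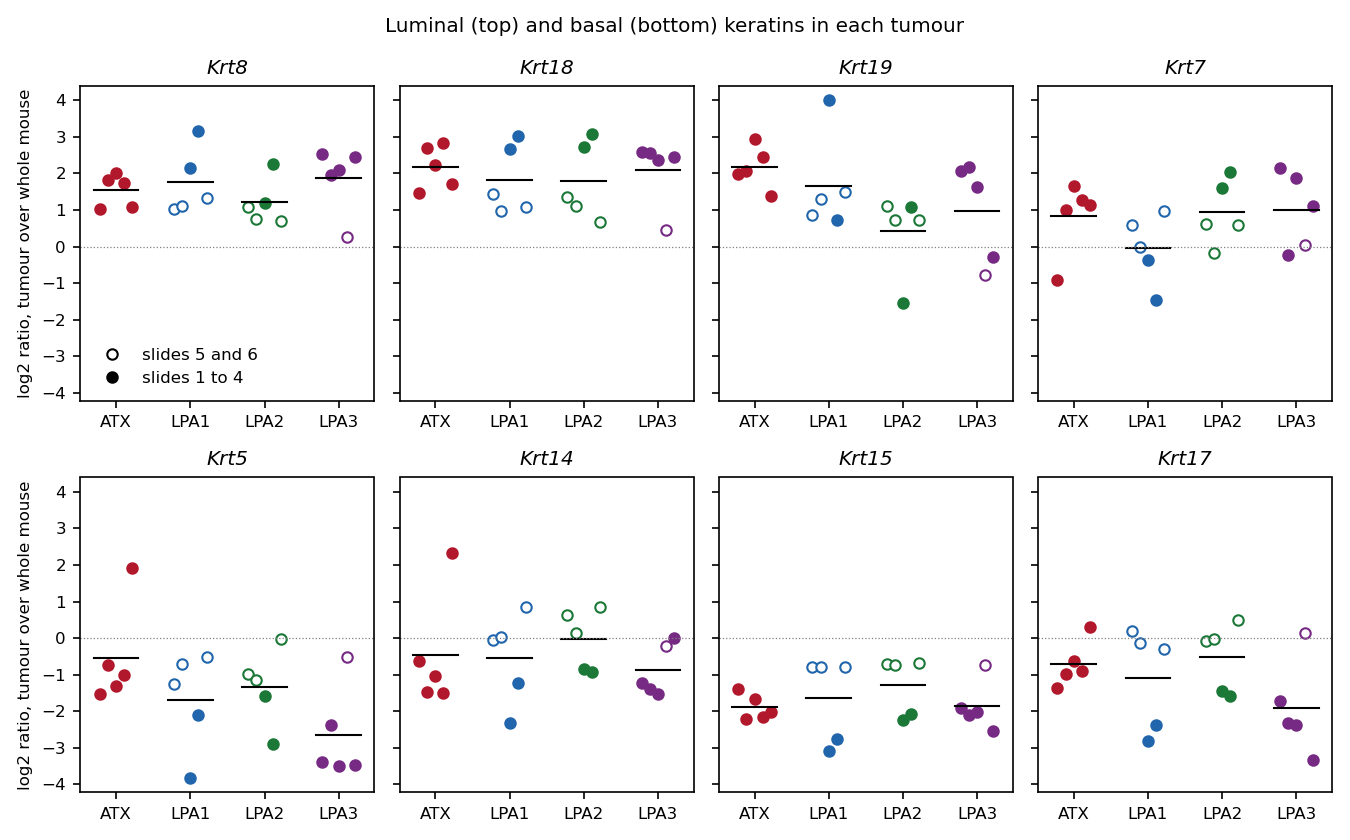
Log2 ratio of tumour over whole mouse (vertical axis) of 4 luminal and 4 basal keratins in each tumour (points) by transgene, with open points for slides 5 and 6, filled points for slides 1 to 4 and a line at the mean of 5 tumours. On slides 1 to 4 the 5 ATX tumours lie above the 8 receptor tumours in Krt5 and Krt17, and Krt8 and Krt18 lie above 0 in all 20 tumours.

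The promoters of the luminal and the basal pair are shown for comparison of the regions before their starts, as RefSeq gives them on GRCm38.p6, 250 bases long and read in the direction of the gene. Those of Krt8 (chr15:102004343-102004592, minus strand), Krt18 (chr15:102027966-102028215, plus strand), Krt5 (chr15:101712906-101713155, minus strand) and Krt14 (chr11:100206031-100206280, minus strand) read as follows, with capitals marking GCCNNNGGC, the motif of AP-2 factors.
Krt8: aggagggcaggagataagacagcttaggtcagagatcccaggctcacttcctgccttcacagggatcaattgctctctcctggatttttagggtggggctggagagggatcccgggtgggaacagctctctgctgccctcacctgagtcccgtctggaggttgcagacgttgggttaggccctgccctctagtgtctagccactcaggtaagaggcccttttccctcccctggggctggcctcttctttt
Krt18: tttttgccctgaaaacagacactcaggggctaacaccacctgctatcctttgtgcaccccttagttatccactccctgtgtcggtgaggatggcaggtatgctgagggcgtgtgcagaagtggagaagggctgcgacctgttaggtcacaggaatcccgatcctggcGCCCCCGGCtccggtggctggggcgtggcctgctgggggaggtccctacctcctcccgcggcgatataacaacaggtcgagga
Krt5: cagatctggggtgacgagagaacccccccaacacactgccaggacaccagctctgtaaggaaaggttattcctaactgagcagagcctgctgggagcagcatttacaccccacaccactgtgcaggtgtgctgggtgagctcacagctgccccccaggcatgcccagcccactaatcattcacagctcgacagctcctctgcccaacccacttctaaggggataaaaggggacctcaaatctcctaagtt
Krt14: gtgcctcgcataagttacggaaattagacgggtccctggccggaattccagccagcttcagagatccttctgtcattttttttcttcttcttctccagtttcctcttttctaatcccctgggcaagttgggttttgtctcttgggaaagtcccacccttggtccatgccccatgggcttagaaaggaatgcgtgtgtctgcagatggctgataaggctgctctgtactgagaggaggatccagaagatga
Promoters of 26 of the 40 keratins could be matched. Searched on both strands, GCCNNNGGC, which reads the same on both, was found in 4 of these 26, those of Krt7, Krt9, Krt18 and Krt90, and in 13.6% of all 27025 promoters. The TATA box TATAAA was found in 12 of 26, those of Krt12, Krt20, the suprabasal Krt10 and Krt76 and the hair keratins Krt25, Krt26, Krt27, Krt31, Krt33b, Krt34, Krt71 and Krt84, and in 13.0% of all promoters. The AP-1 motif TGANTCA, also palindromic, was found in that of Krt13 alone among the 26 and in 6.87% of all. A match is a description of the letters in this window, and none of these motifs overlapped another in the sequences printed.

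No keratin passed the test between genotypes when all 20 tumours were fitted without the slide. Genes were tested with limma, with p-values adjusted by Benjamini-Hochberg over 19069 genes, and called at an adjusted p under 0.05. Over the 4 genotypes (moderated F test) 0 of 40 keratins were called, where 0.0315% of all genes were, and 5 had an unadjusted p under 0.05, where 10.9% of all genes did. For ATX minus the mean of the receptor genotypes 0 of 40 were called, where 0.0996% of all genes were, and 9 had an unadjusted p under 0.05 (12.7% of all genes). Of those 9, Krt5 was higher in ATX tumours (4.86% of all genes were) and Krt4, Krt10, Krt27, Krt33b, Krt35, Krt36, Krt76 and Krt87 were lower. The share of lower ones, 8 of 40, stood beside 7.81% of all genes. With arrays weighted in limma by how closely they fitted the model, 12 of 40 were called for ATX minus receptors, where 16.9% of all genes were. Of these 12 keratins, 11 were lower in ATX tumours (10.9% of all genes) and 1 was higher (6.02%). The 1 higher keratin was the luminal Krt19, with 1.14 (adjusted p = 0.0481), so neither Krt5 nor Krt17 was called higher with weights. Over the 4 genotypes 18 were called (23.1%). LPA1 and LPA2 tumours had weights of 1.152 to 2.523 on slides 5 and 6 and 0.33 to 0.576 on slides 1 to 4. The LPA3 tumour on slides 5 and 6 had 0.592. For LPA1 and LPA2 the weighted calls thus set ATX mainly against tumours of slides 5 and 6.

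In the fit without weights or slide, 10 keratins had a positive and 30 a negative difference for ATX minus receptor tumours, with a median of -0.42, where 45.6% of all genes were positive and the median was -0.04. The largest positive differences were 1.36 for Krt5 (SE 0.612, adjusted p = 0.371), 1.14 for Krt19 and 0.46 for Krt17. The largest negative ones were -1.63 for Krt76 (SE 0.456, adjusted p = 0.17), -1.57 for Krt4 and -1.55 for Krt27. The direction differed by list. In the luminal and the basal list 3 of 4 members were positive (median 0.24 in each), in the stress list 1 of 3, and in the epidermal suprabasal, mucosal suprabasal and hair lists 0 of 4, 0 of 3 and 0 of 16. With arrays scaled to the same spread or quantile normalized, 2 of 4 basal and 1 of 4 epidermal members were positive, and 2 of 16 or 3 of 16 hair members.

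The slides separated the keratins more clearly than the genotypes did by the number of calls. With the genotype in the same fit, 13 of 40 keratins differed between slides 5 and 6 and slides 1 to 4, where 8.72% of all genes did (limma, adjusted p under 0.05). Of them 11 were higher on slides 5 and 6, where 6.89% of all genes were, and Krt8 and Krt18 were lower, where 1.82% were. Krt20 was 2.88 higher (SE 0.378, adjusted p = 4.83e-05), Krt17 was 2.27 higher (SE 0.284, adjusted p = 2.7e-05) and Krt10 was 2.08 higher (SE 0.199, adjusted p = 1.31e-06). Krt18 differed by -1.84 (SE 0.216, adjusted p = 1.33e-05), with a mean of 1.01 on slides 5 and 6 and 2.49 on slides 1 to 4. The median of 6 hepatocyte genes averaged -0.91 on slides 5 and 6 and -3.96 on slides 1 to 4, and that of 6 skeletal muscle genes averaged -0.41 and -3.88. The part of these genes, or of the narrower spread of the ratios, in the keratin differences was not tested. Since 0 ATX tumours were on slides 5 and 6, ATX can be compared with receptor tumours on slides 1 to 4 or in a fit that holds the slide set.

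Once the slide set was a covariate, the basal keratins led. Krt17 rose in ATX tumours by 1.55 over the receptor tumours (SE 0.294, adjusted p = 0.0411) and by 1.66 over LPA3 tumours (adjusted p = 0.0316). It was the 1 keratin called in each of these comparisons, where 0.142% and 0.42% of all genes were, and over the 4 genotypes 0 keratins were called, where 0.0734% of all genes were. This fit used 1 spread per gene for both slide sets. Krt17 had an SD of 0.26 on slides 5 and 6. On slides 1 to 4 its SD was 0.623 in ATX and 0.669 in receptor tumours. The covariate shifts a slide set and does not rescale the narrower ratios. On slides 1 to 4 alone Krt17 was not called (adjusted p = 0.307). Krt5 differed by 2.31 (SE 0.498, adjusted p = 0.0737) and did not pass, though it passed without ATX mouse 1 (0.0309) or LPA2 mouse 3 (0.0402). Over LPA3 tumours it differed by 2.53 (adjusted p = 0.0522), and passed without ATX mouse 1 or 5, LPA1 mouse 3 or 4, LPA2 mouse 3 or LPA3 mouse 2, with adjusted p of 0.0281 to 0.0462. Krt14 differed by 0.81 (SE 0.516, adjusted p = 0.702) and Krt15 by 0.53 (SE 0.189, adjusted p = 0.361), so all 4 basal keratins were positive, with a median of 1.18 beside -0.03 for all genes. The value of Krt14 rested on ATX mouse 5, without which it was 0.11 (SE 0.325). The luminal Krt8 and Krt18 differed by -0.72 (SE 0.256, adjusted p = 0.366) and -0.57 (SE 0.223, adjusted p = 0.429), against -0.07 and 0.28 without the slide set, so the sign of Krt18 turned between the fits. The call of Krt17 over the receptor tumours depended on single tumours. Leaving out each in turn gave differences of 1.30 to 1.71 with adjusted p between 0.012 and 0.128. The call was lost without ATX mice 2, 3 or 4 (adjusted p = 0.112, 0.118 and 0.128), without LPA1 mouse 3 (0.106), and, with adjusted p of 0.0501 to 0.0673, without LPA1 mice 2, 4 or 5, LPA2 mice 1, 2, 4 or 5 or LPA3 mice 3 or 4. The call over LPA3 tumours was lost without ATX mice 2, 3 or 4 or LPA3 mice 3 or 5, with adjusted p of 0.0627 to 0.0843. With each slide as a fixed block Krt17 differed from the receptor tumours by 1.58 (adjusted p = 0.238), and with the slide as a random block by 0.77 (adjusted p = 0.658). From LPA3 tumours it differed by 1.88 (adjusted p = 0.344) and 1.35 (adjusted p = 0.574) in these fits and Krt5 by 2.40 (adjusted p = 0.478) and 2.11 (adjusted p = 0.42), so neither was called with a slide block. Without ATX mouse 5, chosen after its values were seen, Krt17 differed by 1.30 from the receptor tumours (adjusted p = 0.0461), 1 of 40 called where 0.446% of all genes were. From LPA3 tumours Krt17 then differed by 1.41 (adjusted p = 0.042) and Krt5 by 1.92 (adjusted p = 0.0357), 2 of 40 called where 0.551% of all genes were.

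On slides 1 to 4 alone, every ATX tumour lay above every receptor tumour in Krt5 and Krt17. Krt17 lay between -1.36 and 0.30 in the 5 ATX tumours and between -3.33 and -1.45 in the 8 receptor tumours. Krt5 lay between -1.53 and 1.91 in ATX and between -3.83 and -1.58 in receptor tumours, so the groups were separated by a narrow gap. Such a separation was found for 2 of 40 keratins and 0.21% of all genes, and the opposite one for 0 of 40 and 0.063%. Within these slides the difference was 1.53 for Krt17 (SE 0.32, adjusted p = 0.307) and 2.27 for Krt5 (SE 0.577, adjusted p = 0.47). Here 0 of 40 keratins and 0.0% of all genes were called. The fit with the covariate compares ATX through these same tumours, since slides 5 and 6 held 0 ATX tumours. Similar sizes in that fit are thus no separate result. The mean of the 4 luminal minus that of the 4 basal keratins was 2.58 ± 1.18 in ATX tumours (SD, n = 5) and 3.91 ± 0.767 in receptor tumours of slides 1 to 4 (n = 8), and 1.05 ± 0.45 in receptor tumours of slides 5 and 6 (n = 7). For LPA1 mouse 4 this mean used the average of both arrays, the first of them on slide 7.

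**Figure D3:**
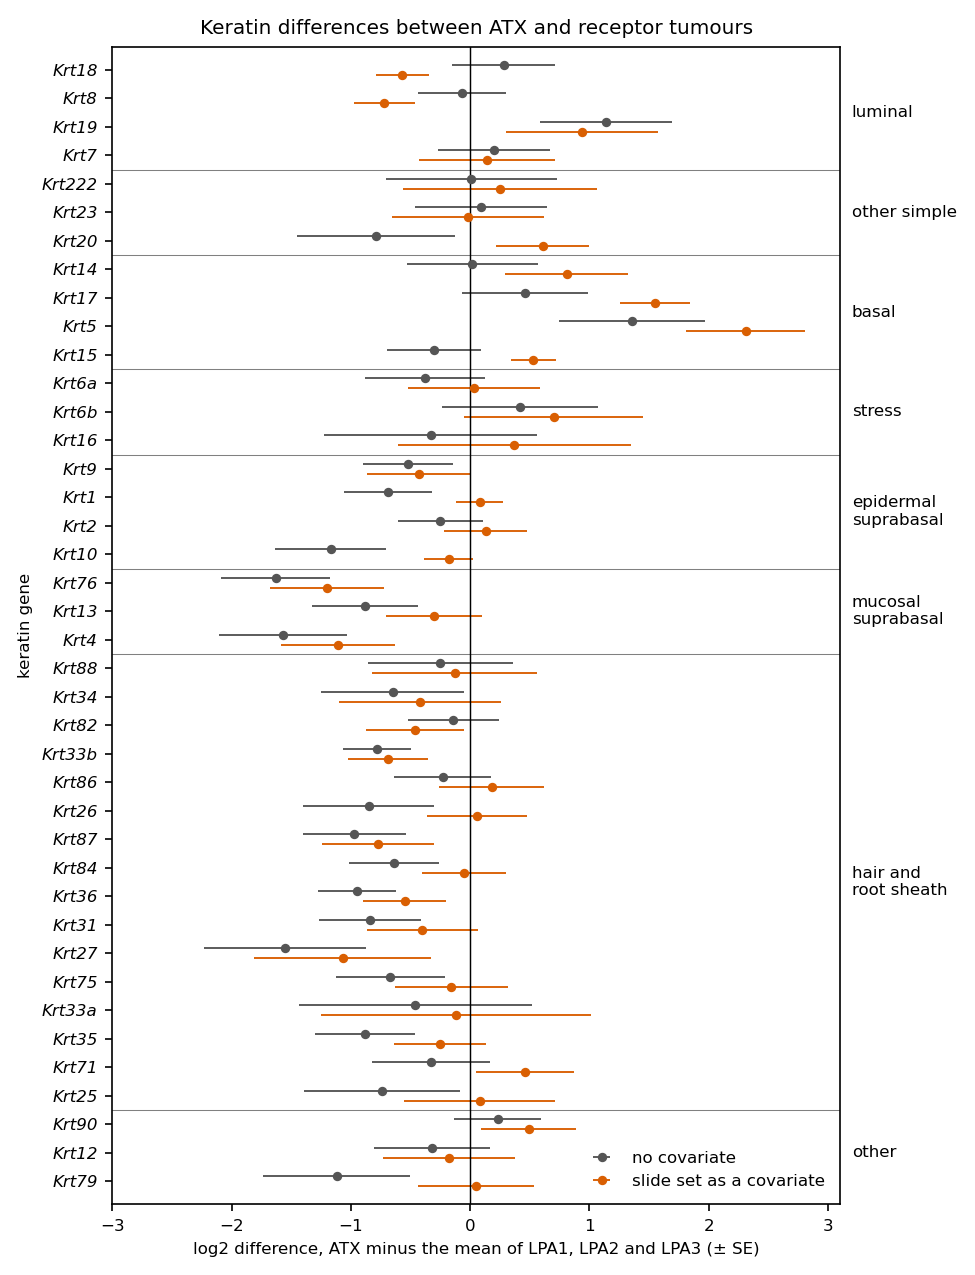
Log2 difference of ATX minus the mean of the receptor tumours for each keratin (points, bars ± 1 SE), fitted without a covariate (grey) and with the slide set as a covariate (orange). With the slide set, all 4 basal keratins lie to the right of 0, led by Krt5 at 2.31 and Krt17 at 1.55, and the 3 mucosal keratins lie to the left in both fits.

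Other genes of basal cells had positive differences as well, and so did most luminal markers without the covariate. With the slide set as a covariate, all 5 basal transcription factors and all 6 measured hemidesmosome genes were positive in ATX minus receptor tumours, and 2 and 1 of them rose by the test, where 0.142% of all genes were called. These were Snai2, a repressor of epithelial genes found in basal cells, with 2.75 (adjusted p = 0.0107), Id4, an inhibitor of DNA binding in basal mammary cells, with 4.19 (adjusted p = 0.0186), and Col17a1, the collagen of hemidesmosomes that anchors basal keratin filaments, with 3.16 (adjusted p = 0.00741). Without the covariate these differed by 2.04, 3.16 and 2.26 and were not called (adjusted p = 0.125, 0.125 and 0.131). The calls were also lost with each slide as a fixed block, at 2.52, 3.78 and 3.15 (adjusted p = 0.238, 0.252 and 0.0509), and as a random block, at 2.15, 3.38 and 2.48 (adjusted p = 0.124, 0.124 and 0.0901). Trp63, the p63 factor that drives Krt5 and Krt14 in skin, differed by 1.36 (SE 0.437, adjusted p = 0.278). All 6 myoepithelial contractile genes were positive (median 1.42) with 0 called, the largest being 3.08 for Cnn1 (adjusted p = 0.0599). The desmosome and plakin genes, which tie keratins to cell junctions, were positive in 11 of 14 (median 0.50) with 0 called. Positive signs were not limited to basal genes. Without the covariate 9 of 10 luminal markers were positive (median 0.54, 0 called), where 45.6% of all genes were. With the slide set, Gata3 differed by 1.76, Foxa1 by 0.62, Epcam by 0.31, Ehf by -0.06 and Elf5 by -0.20. ATX mouse 5, highest in Krt5 and Krt14, had the lowest contractile median of the ATX tumours, -0.63. These lists were chosen with results of the same tumours known, and over all genes 46.8% were positive in the fit with the slide set.

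The stress keratins, which skin makes at wound edges and in hyperproliferation, were high in 1 tumour. Krt16, the type I member, had log2 ratios of -2.06, -2.99, -2.06, -2.64 and 4.80 in ATX tumours. It had 0.10, 0.44, -1.90, -1.94 and -1.09 in LPA1 tumours, -0.18, 0.57, 0.65, -1.96 and 0.69 in LPA2 tumours and -0.63, -0.55, -1.60 and -2.52 in LPA3 mice 1, 2, 3 and 5, with LPA3 mouse 4 at 0. ATX mouse 5 thus held the highest value of all tumours and the other 4 ATX tumours were among the lowest. Its type II partners Krt6a and Krt6b reached 2.77 and 4.28 in ATX mouse 5, and lay between -1.79 and -0.55 and between -2.23 and 0.45 in the other ATX tumours. Over the ATX minus receptor comparison none of the 3 was called, with differences of -0.38 for Krt6a, 0.42 for Krt6b and -0.33 for Krt16 (SE 0.893). In the fit that held the slide set all 3 were positive, at 0.03, 0.70 and 0.37, and without ATX mouse 5 in that fit all 3 were negative, with a median of -0.78, so the direction in that fit rested on that tumour.

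Of 15 measured genes of the cornified envelope, the protein shell of dead skin cells, 5 lay above 0 and 10 below in this tumour, with a median of -1.24. It held the highest value of the 20 tumours for 4 of them, the envelope precursors Sprr1a at 2.34, Sprr1b at 2.96 and Ivl at 1.78 and the crosslinking enzyme Tgm1 at 1.80. Among the 10 low members were Lor at -4.45, Flg2 at -4.13 and Hrnr at -5.11. Its Krt5 and Krt14 were also the highest of all tumours, while Krt10 of differentiated epidermis was at -3.17 and Krt1 at -1.28, both below the whole mouse. No other tumour had Krt6b above 0.86.

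Suprabasal keratins of the epidermis were low in all genotypes. Krt10, the type I keratin of the spinous layer, averaged -3.60 ± 0.37 in the ATX group, -2.34 ± 1.40 with LPA1, -1.98 ± 0.828 with LPA2 and -2.97 ± 0.955 with LPA3. Its 7 values on slides 5 and 6 lay between -1.56 and -1.17, and the 13 on slides 1 to 4 between -4.08 and -2.70. The ATX minus receptor difference was -1.17 (SE 0.465, adjusted p = 0.305), and -0.18 (SE 0.206, adjusted p = 0.846) in the fit that held the slide set. Its partner Krt1 averaged -1.74 ± 0.363 in the ATX group, -0.98 ± 0.943 with LPA1, -0.66 ± 0.857 with LPA2 and -1.51 ± 0.697 with LPA3. Krt2 of the upper epidermis averaged -1.80 ± 0.364 in the ATX group, -1.34 ± 0.776 with LPA1, -1.08 ± 0.488 with LPA2 and -2.24 ± 1.04 with LPA3. Krt9, a keratin of footpad skin, lay near the reference, with means between -0.51 in ATX and 0.31 in LPA1 tumours. The 2 probes of Krt1 averaged 0.21 and -2.73, with a correlation of 0.413 between them, and those of Krt2 correlated at -0.075, so these averages join probes that did not move together.

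The mucosal suprabasal list had the most negative median of the 8 keratin lists for ATX minus receptor tumours, -1.57 without and -1.11 with the slide set in the fit, and 0 of 3 were called in each. Krt76, a type II keratin of palate and skin, had log2 ratios of 0.05, -1.99, -0.74, -1.11 and -0.91 in ATX tumours. It had 1.46, 1.36, -0.79, 2.71 and 2.44 in LPA1 tumours, 0.34, 0.75, 0.42, -0.74 and 0.91 in LPA2 tumours and -0.15, -0.72, 0.95, 1.32 and 0.08 in LPA3 tumours. The ATX values were low as a group, and LPA1 mouse 3, LPA2 mouse 4 and LPA3 mice 1 and 2 lay within their range. The difference to the receptor tumours was -1.63 (adjusted p = 0.17), and -1.20 (SE 0.477, adjusted p = 0.438) with the slide set as a covariate. Without LPA1 mouse 3 it was -1.81 and was called (adjusted p = 0.0467), as 0.221% of all genes then were.

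Krt4, the type II keratin of oesophagus and tongue, had -3.31, -2.94, -1.94, -2.18 and -2.70 in ATX tumours, all well below the whole mouse. It ranged from -3.75 to 0 in LPA1 tumours, with a mean of -1.74 ± 1.52, and averaged -0.31 ± 0.343 in LPA2 and -1.09 ± 1.51 in LPA3 tumours. The -3.75 was the average of the 2 arrays of LPA1 mouse 4, which disagreed, at -5.15 and -2.35. The ATX and LPA2 values did not overlap, and their difference of -2.30 (SE 0.66, adjusted p = 0.23) did not pass. The share of all genes that separate these groups was not counted. On 4 arrays the probe of Krt4 was listed at exactly 0, namely LPA1 mouse 1, LPA2 mice 1 and 2 and LPA3 mouse 3, 3 of them on slides 5 and 6. With such values taken as missing, Krt4 had too few LPA2 tumours left to be tested. Krt13, its type I partner, averaged -1.61 ± 1.03 in the ATX group, -1.05 ± 1.12 with LPA1, -0.46 ± 0.64 with LPA2 and -0.67 ± 0.776 with LPA3. The 2 probes of Krt13 averaged -1.81 and -0.23, with a correlation of 0.598 between them. In ATX mouse 5 they had opposite signs, at -1.94 and 1.30.

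Hair and root sheath keratins were low in most tumours and high in 2. Of the 28 genes listed, 16 were measured, and their median lay below 0 in 18 of 20 tumours. The exceptions were LPA3 mouse 2, with a median of 0.73 and 8 of 16 above 1, and LPA2 mouse 5, with 0.45 and 5 of 16. Of all genes, 13.0% and 5.57% lay above 1 in these tumours. Each of these tumours held the highest value of all 20 for 7 of the 16 genes. Krt33a, an acidic keratin of the hair cortex, reached 3.66 in LPA3 mouse 2 and 1.76 in LPA2 mouse 5, and lay at or below 0 in the 18 others. Krt31, another cortex keratin, reached 1.82 and 0.71 in these 2 tumours and lay at or below -0.36 in all others.

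Keratin-associated protein genes were high in the same tumours. Of 40 keratin-associated protein genes, which build the matrix between hair keratins, 21 lay above 1 in LPA3 mouse 2 and 12 in LPA2 mouse 5, and at most 5 in any other tumour. Of all genes, 13.0% lay above 1 in LPA3 mouse 2 and 5.57% in LPA2 mouse 5, where the 20 tumours ranged from 4.48% to 14.3%. The median of 8 listed hair follicle genes was 0.18 and 0.37 in these tumours and below 0 in the 18 others. Its members differed. In LPA3 mouse 2 and LPA2 mouse 5, Tchh was at 3.05 and 1.73 and Padi3 at 2.29 and 2.19. Dlx3 was at 0.71 and 0.05, Hoxc13 at 0.22 and 1.36, and Lef1 at 0.14 and -0.21. Msx2 was at -0.01 and 0.04, Shh at -0.57 and 0.70, and Foxn1 at -0.01 and -2.16. Padi3 was higher still in ATX mouse 5, at 4.24. Krt10 of the epidermis was not high in LPA3 mouse 2 or LPA2 mouse 5. It was at -3.41 in LPA3 mouse 2, within the range of the other tumours of slides 1 to 4, and at -1.56 in LPA2 mouse 5, the lowest of slides 5 and 6.

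**Figure D4:**
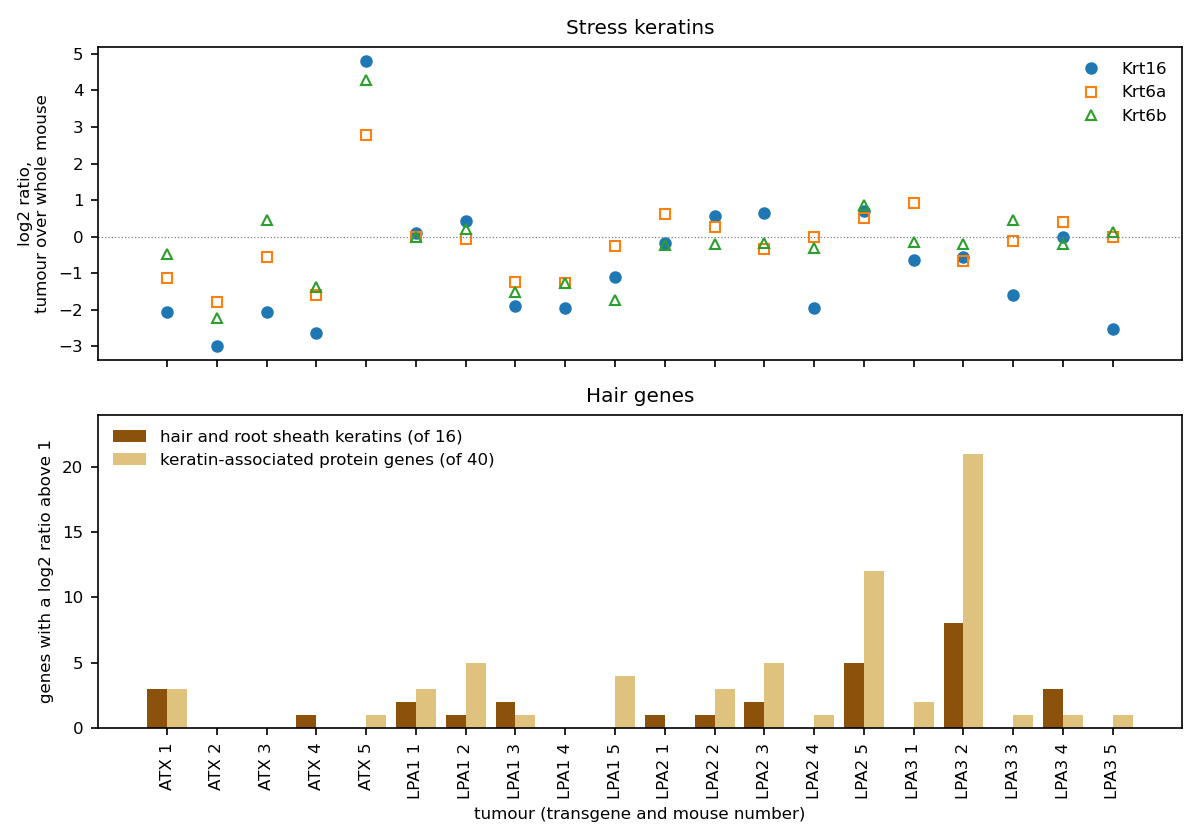
Top, log2 ratio of tumour over whole mouse of Krt16, Krt6a and Krt6b in each tumour. Bottom, number of hair and root sheath keratins (of 16) and of keratin-associated protein genes (of 40) with a log2 ratio above 1 in each tumour. The stress keratins peak in ATX 5, at 4.80 for Krt16, and the hair counts peak in LPA3 2, at 8 and 21, and LPA2 5, at 5 and 12.

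All 16 hair keratins had a negative difference in ATX minus receptor tumours (median -0.71), and 12 of 16 with the slide set as a covariate (median -0.20), with 0 called in each. Krt27 of the inner root sheath had the largest, -1.55 (SE 0.68, adjusted p = 0.354). Without LPA2 mouse 5 and LPA3 mouse 2, 15 of 16 were negative and the median was -0.45. Krt33b and Krt36 had, with Krt27, the smallest unadjusted p of the hair keratins over the 4 genotypes (0.00914, 0.0441 and 0.0689). The probes of Krt33b did not move together (r = -0.003), and Krt36 averaged -1.55 ± 0.63 in the ATX group, -0.72 ± 0.63 with LPA1, -0.32 ± 0.796 with LPA2 and -0.73 ± 0.56 with LPA3. The highest means of the hair keratins over all tumours were those of Krt88 and Krt34, 0.37 ± 1.20 and 0.27 ± 1.19.

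Krt23, a type I keratin of simple epithelia, had the largest differences between receptor genotypes. Its log2 ratios were -1.37, -1.43, -3.54, -2.62 and -0.98 in LPA1 tumours, all below the reference. They were -1.31, -1.25, 2.02, 0.81 and 0.59 in LPA2 tumours and 0.31, 1.17, 1.08, -0.53 and -0.91 in LPA3 tumours. ATX tumours, with -2.04, 0.18, -0.82, -0.46 and 0.94, overlapped with all 3 groups. The LPA1 and LPA3 values did not overlap, by the narrow gap between -0.98 in LPA1 mouse 5 and -0.91 in LPA3 mouse 5. The LPA1 and LPA2 values did overlap. The share of all genes that separate LPA1 from LPA3 tumours was not counted. The difference was -2.16 for LPA1 minus LPA2 (SE 0.678, adjusted p = 0.999) and -2.21 for LPA1 minus LPA3 (SE 0.678, adjusted p = 0.393), neither called. On slides 1 to 4 alone it was -4.64 and -3.63 (adjusted p = 0.199 and 0.23), with 2 LPA1 tumours there. The LPA2 tumours there were those of mice 3 and 4 alone. On slides 5 and 6 the differences were -0.60 and -0.73, the second against the 1 LPA3 tumour there.

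Krt222 stood out in LPA1 mouse 5, at 5.01, the highest value of any keratin in any tumour, while the other LPA1 tumours lay between -1.06 and 0.47. Krt20 was the lowest keratin of 10 tumours and averaged -4.45 ± 0.894 in the ATX group, -3.53 ± 1.90 with LPA1, -3.14 ± 1.08 with LPA2 and -4.33 ± 1.46 with LPA3. Krt79, a keratin of the hair canal and sebaceous duct, averaged -2.36 ± 1.30 in the ATX group, -1.65 ± 1.44 with LPA1, -0.67 ± 1.45 with LPA2 and -1.41 ± 0.885 with LPA3. Krt12, the keratin of the cornea, was at or below 0 in every tumour.

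The pairs of genotypes gave 0 keratins of 40 called in each case, where the share of all genes called was 0.0% for ATX minus LPA1, 0.00524% for ATX minus LPA2 and 0.0996% for ATX minus LPA3. For LPA1 minus LPA2, LPA1 minus LPA3 and LPA2 minus LPA3 it was 0.0%, 0.00524% and 0.0%. The comparisons with ATX share the ATX tumours. With weighted arrays the counts were 6 for ATX minus LPA1 (11.6% of all genes), 20 for ATX minus LPA2 (16.5%) and 3 for ATX minus LPA3 (8.43%). They were 0 for LPA1 minus LPA2 (0.0%), 0 for LPA1 minus LPA3 (6.37%) and 8 for LPA2 minus LPA3 (9.0%). These weights favoured the tumours of slides 5 and 6 in the LPA1 and LPA2 groups. At an unadjusted p under 0.05 there were 3 keratins for ATX minus LPA1 (8.99% of all genes), 14 for ATX minus LPA2 (12.6%) and 7 for ATX minus LPA3 (11.5%). There were 3 for LPA1 minus LPA2 (3.66%), 2 for LPA1 minus LPA3 (9.2%) and 5 for LPA2 minus LPA3 (9.32%). Of the 14 in ATX minus LPA2, 13 were lower in ATX tumours, where 8.32% of all genes were, among them Krt4, Krt36, Krt10 and Krt35, and Krt19 was higher, where 4.3% were. ATX had 0 and LPA2 had 3 tumours on slides 5 and 6. In the fit that held the slide set, Krt4 differed by -1.60 (unadjusted p = 0.014) and was the only 1 of these 14 still under 0.05, while Krt36, Krt10 and Krt35 differed by -0.75, -0.37 and -0.60.

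Between receptor genotypes, further large differences were those of Krt4 (-1.43), Krt76 (1.10) and Krt19 (1.24) for LPA1 minus LPA2. For LPA1 minus LPA3 they were those of Krt33a (-1.96), Krt76 (1.14) and Krt222 (1.72). For LPA2 minus LPA3 they were those of Krt90 (-1.12), Krt33b (-0.90), Krt17 (1.39, SE 0.648, adjusted p = 0.532) and Krt25 (1.94, SE 0.803, adjusted p = 0.523). LPA2 has 3 tumours on slides 5 and 6 and LPA3 has 1, and with the slide set as a covariate the difference of Krt17 was 0.48 and that of Krt25 was 1.26.

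Some partners of the same filament followed each other across tumours, and within the sets of slides most pairs did not pass by rank. Permutations over 20 tumours did not keep the sets of slides apart, and Krt5, Krt8 and Krt18 differed between those sets. The pooled values therefore include the slide difference. For Krt8 and Krt18 Pearson's r was 0.848 and Spearman's rho 0.755 over 20 tumours (permutation test, adjusted over 6 pairs, p = 3e-05 and 0.00096). On slides 1 to 4 r was 0.639 and rho 0.401 (n = 13, permutation, adjusted p = 0.0388 and 0.293), so the ranks did not pass. Nor did they on slides 5 and 6, with r of 0.754 and rho of 0.429 (n = 7, exact permutation, adjusted p = 0.145 and 0.794). Without LPA1 mouse 4 and LPA3 mouse 4, the tumours farthest from the median of Krt8, r was 0.81. For Krt8 and Krt19 the relation did not pass over all tumours, with r of 0.346 and rho of 0.313 (permutation, adjusted p = 0.136 and 0.179) and r of 0.0182 on slides 1 to 4. It passed on slides 5 and 6, with r of 0.951 and rho of 1.0 (n = 7, exact permutation, adjusted p = 0.00119 and 0.00238).

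For the basal partners Krt5 and Krt14 r was 0.74 and rho 0.66 over 20 tumours (permutation, adjusted p = 0.000315 and 0.00343). On slides 1 to 4 r was 0.668 and rho 0.335 (n = 13, permutation, adjusted p = 0.0479 and 0.315), so the ranks did not pass. It was 0.474 on slides 5 and 6 and 0.506 without ATX mouse 5 and LPA1 mouse 3. For the stress partners Krt6a and Krt16 r was 0.838 and rho 0.655 (permutation, adjusted p = 4e-05 and 0.00343), 0.436 on slides 5 and 6 and 0.617 without ATX mice 5 and 2. On slides 1 to 4 r was 0.84 and rho 0.616 (n = 13, permutation, adjusted p = 0.019 and 0.0815). For the mucosal partners Krt4 and Krt13 r was 0.651 and rho 0.548 (permutation, adjusted p = 0.00238 and 0.0155), and 0.445 and 0.126 within the sets of slides, where neither passed. For the epidermal partners Krt1 and Krt10 the tumours formed separate clusters by slide set, so no pooled value is given. Within slides 1 to 4 r was 0.706 and rho 0.724 (n = 13, permutation, adjusted p = 0.0206 and 0.039), and within slides 5 and 6 they were 0.176 and 0.25 (n = 7, exact permutation, adjusted p = 0.736 and 0.794).

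**Figure D5:**
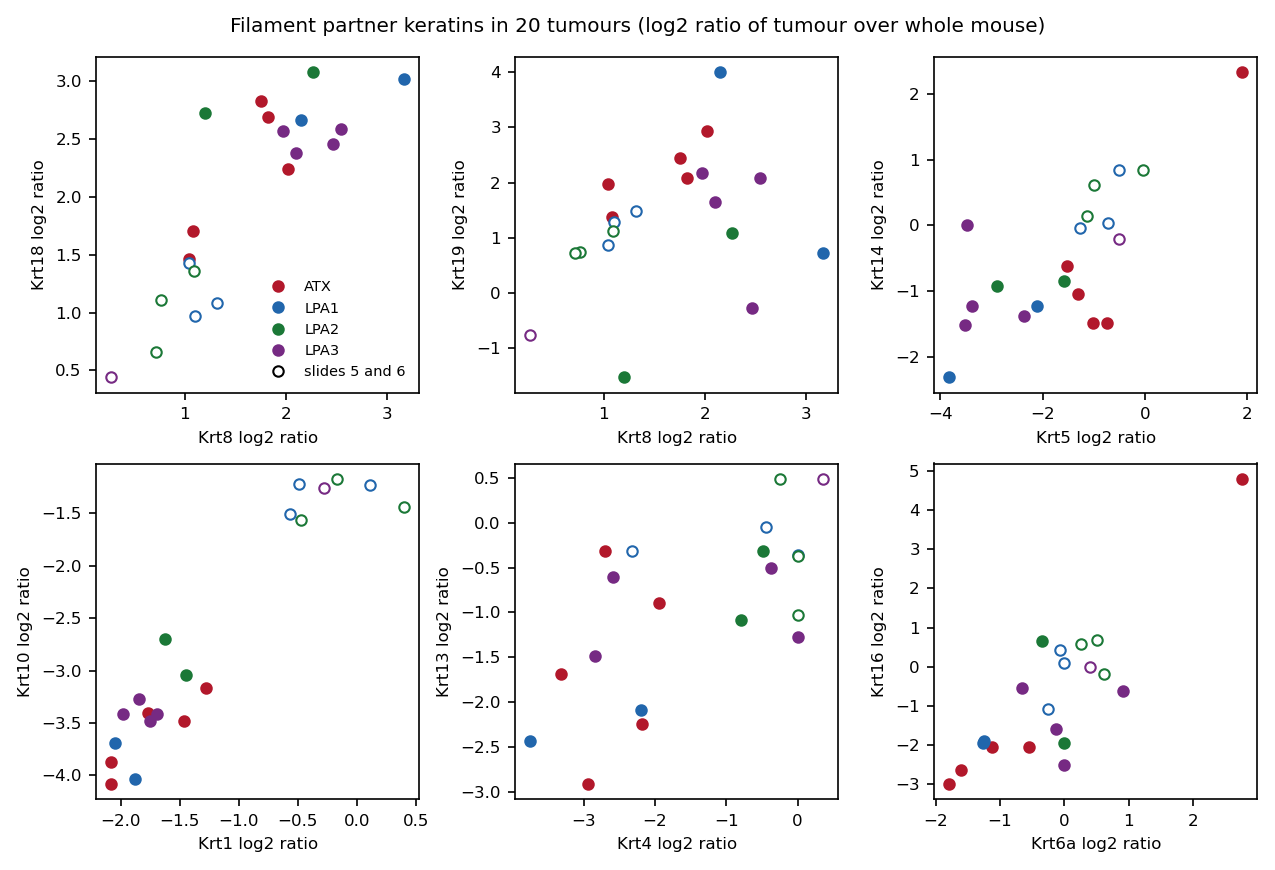
Log2 ratios of 6 pairs of keratins (axes) in 20 tumours (points, coloured by transgene, open for slides 5 and 6 and filled for slides 1 to 4). Krt8 and Krt18 rise together, ATX 5 lies at the top right of Krt5 with Krt14 and of Krt6a with Krt16, and Krt1 with Krt10 splits by slide set.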

How the data were processed

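Tumour RNA labelled with Cy5 was hybridised with Cy3-labelled whole-mouse RNA on 2-colour Agilent arrays, with no dye swap per the labels, so any dye bias remains in each ratio. The deposited values are the authors' processed log2 ratios, with each array centred on a median of 0; the log base, background correction and dye normalization are not given in the sources used here. Scanner intensities were not used, so signal over background is not known, and the number of arrays limits the precision. Ratios of exactly 0, 2180 to 3916 an array, were kept.

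Probes were named through the platform annotation: of 45220 features 33653 had 1 symbol, 56 several and 11511 none. Probes were averaged per gene, and both arrays of LPA1 mouse 4 were averaged; where slide was a term its repeat array was used. limma 3.58.1 in R 4.3.3 fitted the 20 tumours without a covariate, with 16 residual degrees of freedom, over 19069 genes with a value in at least 4 tumours per genotype. The tumours are separate mice per the labels. Correlations used 100000 permutations, or exact ones for 7 tumours. The fits were tested on simulated data.

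Slides, scaling, weights, missing values, probe summary and left-out tumours were varied in 37 alternatives. Mouse numbers did not pair the tumours: the correlation of deviations had a median of 0 over 30 same-number pairs and -0.02 over 120 others.

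The members and lists were chosen with earlier results of these data known. All luminal, basal, stress and suprabasal keratins were named. Of hair and other keratins, those named were any called, the 3 of smallest F-test p, the 2 highest and 2 lowest in mean, and the largest differences. Of partner lists, those named were the called genes and up to 3 of largest size. Further genes named were chosen after their values were seen.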

Additional observations from a re-analysis of the deposited data

Results flagged for a closer look

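Of the 160 groups of 5 tumours, 1 for each keratin and genotype, 26 (16.2%) held a tumour whose gap to the nearest of the other 4 was larger than Dixon's 95% critical value of 0.71 of the range allows. About 1 in 20 would be flagged if the values were independent and normal, which keratins of the same tumours need not be. The share flagged over all genes was not computed, so the count is not a trait of keratins. The flags fell mainly on a few tumours.

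ATX mouse 5 stood apart from the other ATX tumours in 7 keratins. It was high in the stress keratins Krt16 (log2 ratio 4.80) and Krt6a (2.77), in the basal keratins Krt14 (2.33) and Krt5 (1.91), and in Krt79 (-0.08) and Krt25 (-1.65), and low in Krt87 (-2.96). LPA3 mouse 4, the LPA3 tumour of slides 5 and 6, was low in Krt18 (0.44) and Krt8 (0.27) and high in Krt1 (-0.28) and Krt10 (-1.26).

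LPA2 mouse 5 was high in the hair keratins Krt33a (1.76), Krt36 (1.08) and Krt75 (0.89) and in Krt6b (0.86). LPA3 mouse 2 was high in Krt34 (3.04) and Krt82 (1.98). LPA1 mouse 3 was high in Krt19 (4.00) and Krt82 (1.30) and low in Krt86 (-1.36), and LPA2 mouse 3 was low in Krt19 (-1.53) and high in Krt82 (1.44). Single flags were those of Krt7 in ATX mouse 1 (-0.92), Krt9 in LPA1 mouse 2 (1.99), Krt222 in LPA1 mouse 5 (5.01) and Krt90 in LPA2 mouse 4 (-2.80).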

How the results depend on the processing

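The 37 differences tracked were recomputed 1340 times, of which 1303 kept their direction and 37 reversed, and 29 of the differences never reversed. Array weights gave 18 keratins called over the 4 genotypes (23.1% of all genes), 12 for ATX minus receptors (16.9%) and 6 for ATX minus LPA1 (11.6%). They gave 20 for ATX minus LPA2 (16.5%), 3 for ATX minus LPA3 (8.43%) and 8 for LPA2 minus LPA3 (9.0%). These weights favoured the tumours of slides 5 and 6 in the LPA1 and LPA2 groups. At an unadjusted p under 0.05 there were 5, 9, 3, 14, 7, 3, 2 and 5 in the order of the report. The slide set as a covariate gave 1 for ATX minus receptors and 1 for ATX minus LPA3, and with ATX mouse 5 also left out, an alternative chosen after seeing the data, 1 and 2. In the fit without the slide, leaving out 1 tumour gave 0 to 1 for ATX minus receptors, the 1 being Krt76 without LPA1 mouse 3, and 0 in the other comparisons. The replicate block called 0 keratins in each comparison. Krt14 for ATX minus receptors, 0.02 without a covariate, was -0.15 with scaled arrays, -0.06 with quantile normalization, -0.76 with array weights, -0.02 with the first array of LPA1 mouse 4 alone and -0.68 to 0.27 without 1 tumour. Krt15, -0.30 without a covariate, was 0.60 in the fit with fixed slide terms, 0.53 once the slide set was a covariate, 0.56 on slides 1 to 4 and 0.57 with the slide set but without ATX mouse 5. For ATX minus receptors, Krt18 (0.28 without a covariate) was -0.57 with the slide set, -0.50 with fixed slide terms, -0.56 on slides 1 to 4 and -0.45 with the slide set but without ATX mouse 5, and Krt8 (-0.07) was 0.19 with array weights and -0.20 to 0.06 without 1 tumour. Krt6a (-0.38) was 0.03, 0.50 and 0.06 and Krt16 (-0.33) was 0.37, 0.33 and 0.38 with the slide set, with fixed slide terms and on slides 1 to 4, and Krt16 was -1.78 to 0.17 without 1 tumour. Krt6b (0.42) was -0.60 with array weights, -0.34 with the slide set but without ATX mouse 5 and -0.62 to 1.01 without 1 tumour. Krt17 for LPA2 minus LPA3 was -0.001 on slides 5 and 6. On slides 5 and 6 the partner correlations were 0.754 for Krt8 and Krt18, 0.951 for Krt8 and Krt19 and 0.474 for Krt5 and Krt14. They were 0.176 for Krt1 and Krt10, 0.126 for Krt4 and Krt13 (0.445 on slides 1 to 4) and 0.436 for Krt6a and Krt16. On these slides 18 keratins had a mean above 0, against 8 over all tumours. Of all genes, 50.9% did so over all tumours, and their share on slides 5 and 6 was not computed. The causes were not tested.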
